A study of Mus musculus with 6 samples.

Results

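The genes described here are 32 transport and metabolism genes of the kidney proximal tubule, chosen by gene symbol from a list drawn up for this tubule segment. Each symbol matched 1 row, so that 32 of the 31815 mouse gene rows of the table are covered. Messenger RNA was sequenced after sorting cells from the dissociated cortex and outer medulla of injured mouse kidneys, in 3 libraries of tdT+GFP+ cells and 3 libraries of tdT-GFP+ cells. All animals were male, 9 to 12 weeks old, and of the genotype Axin2CreERT2/+:R26RtdT/+:Acta2-GFP. All underwent bilateral ischemia reperfusion injury, in which the blood supply of the kidneys is stopped and restored, received tamoxifen on days 2 and 4 and were sorted on day 6. The tdT+GFP+ cells carry tdTomato, switched on by a Cre recombinase under the control of the Wnt target Axin2, together with a green fluorescent protein under the promoter of the smooth muscle actin gene Acta2. The tdT-GFP+ cells carry the green protein only. Acta2 is used by myofibroblasts and also by vascular smooth muscle, and the tdT label marks use of Axin2 around the tamoxifen days, not on the day of the sort. The labels give each library a kidney number, 1, 2 or 3, and each number occurs once in both sorts. No uninjured kidney and no sorted tubule cells were analysed here.

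The proximal tubule takes back most of the glucose, amino acids, phosphate, bicarbonate and filtered protein from the primary urine. Its cells make glucose, burn fatty acids and secrete organic anions into the urine. The early convoluted part and the straight part that follows it use different transporters. Ischemia injures these cells most, and injured or dedifferentiated proximal tubule cells lose many of these transcripts. Fibroblasts and myofibroblasts are not known for most of these genes, whereas Aqp1, Ass1, Gatm, Ggt1, Pck1 and Slc4a4 are also known from other cells of the kidney or connective tissue.

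All 32 genes were detected in every library, at a low share of the RNA. The lowest count of any of them in a library was 13, and all 32 passed the filter on low counts. Together they made up 0.0927%, 0.130% and 0.0851% of all counts in tdT+GFP+ libraries 1, 2 and 3, against 0.0736%, 0.169% and 0.186% in tdT-GFP+ libraries 1, 2 and 3. For scale, 12 fibroblast and myofibroblast genes took 6.75% to 7.38% of counts in tdT+GFP+ libraries and 5.60% to 7.69% in tdT-GFP+ libraries. Total counts ran from 26919514 to 33029933 in tdT+GFP+ libraries and from 25697348 to 31337198 in tdT-GFP+ libraries. Levels are given below in CPM, the count of a gene relative to the size of its library after TMM scaling. Values of a group always follow the order of kidneys 1, 2 and 3. In such bulk samples, fewer cells of a type and less RNA per cell cannot be told apart.

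The libraries did not fall apart by sort alone. TdT+GFP+ library 3 lay with the tdT-GFP+ libraries in red cell genes and within their range in Umod, but with its own sort in endothelial genes. In podocyte genes it lay below the tdT-GFP+ libraries, though nearer to them than to the other libraries of its own sort. Red cell genes, 6 in the list with 1 of them at 0 in all libraries, summed to 0.763, 1.68 and 18.7 CPM in tdT+GFP+ libraries, against 20.4, 14.3 and 17.2 CPM in tdT-GFP+ libraries. Umod, a gene of the thick ascending limb, had 121, 82.5 and 451 CPM in tdT+GFP+ libraries and 353, 621 and 754 CPM in tdT-GFP+ libraries. Endothelial genes summed to 1604, 2357 and 1832 CPM in tdT+GFP+ libraries and 3557, 2585 and 4448 CPM in tdT-GFP+ libraries, and podocyte genes to 600, 586 and 758 CPM in tdT+GFP+ libraries and 792, 814 and 853 CPM in tdT-GFP+ libraries. Neither sum overlapped between the sorts. Libraries that share a kidney number did not deviate together from the means of their sorts over the 15462 genes tested below, with correlations of 0.093, -0.657 and -0.342 for kidneys 1, 2 and 3. Across the numbers, tdT+GFP+ library 2 and tdT-GFP+ library 3 correlated at 0.516, and tdT+GFP+ library 3 and tdT-GFP+ library 2 at 0.514. Deviations from a mean of 3 libraries are tied to each other, so these positive values partly follow from the negative ones. Whether a number or a library was exchanged was not tested, and each value given by kidney below follows the labels. With 3 libraries a group, p-values weigh the difference between the sorts against the spread of libraries within a sort. The main test did not use the kidney numbers.

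The promoter windows of 4 genes are shown because their transcripts lie at different places in the range of differences described below. The windows span 250 bases before to 50 after the annotated start (RefSeq, build GRCm38.p6) and are given on the strand of the gene. Capitals mark GTTAAT, part of the binding motif of the tubule factor HNF1, CAAAGTCCA, a motif of the nuclear receptor HNF4A, and TATAAA, the letters of the TATA box. Matches are marked on either strand and at any position in the window. Slc34a1 (chr13:55399398-55399697, plus strand) encodes the phosphate transporter, Slc22a8 (chr19:8592932-8593231, plus strand) an organic anion transporter, Slc3a1 (chr17:85028097-85028396, plus strand) the heavy chain of the cystine transporter, and Kap (chr6:133853618-133853917, minus strand) an androgen-induced protein.
Slc34a1: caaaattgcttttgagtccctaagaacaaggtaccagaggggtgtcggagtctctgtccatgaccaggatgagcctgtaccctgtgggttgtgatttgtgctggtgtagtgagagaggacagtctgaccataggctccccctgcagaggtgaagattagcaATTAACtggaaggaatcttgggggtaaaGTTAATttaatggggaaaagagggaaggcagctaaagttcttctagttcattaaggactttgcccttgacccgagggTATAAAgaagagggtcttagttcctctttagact
Slc22a8: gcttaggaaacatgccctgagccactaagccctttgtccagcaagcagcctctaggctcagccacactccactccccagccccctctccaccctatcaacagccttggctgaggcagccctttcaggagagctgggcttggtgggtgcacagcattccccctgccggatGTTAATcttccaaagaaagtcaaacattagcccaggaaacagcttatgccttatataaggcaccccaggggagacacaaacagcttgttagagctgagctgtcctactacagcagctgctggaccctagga
Slc3a1: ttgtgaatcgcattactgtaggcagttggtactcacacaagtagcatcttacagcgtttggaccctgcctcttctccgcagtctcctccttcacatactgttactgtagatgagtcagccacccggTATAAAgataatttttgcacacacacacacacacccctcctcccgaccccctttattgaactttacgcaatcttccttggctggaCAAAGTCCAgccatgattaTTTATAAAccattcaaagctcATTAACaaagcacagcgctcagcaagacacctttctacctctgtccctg
Kap: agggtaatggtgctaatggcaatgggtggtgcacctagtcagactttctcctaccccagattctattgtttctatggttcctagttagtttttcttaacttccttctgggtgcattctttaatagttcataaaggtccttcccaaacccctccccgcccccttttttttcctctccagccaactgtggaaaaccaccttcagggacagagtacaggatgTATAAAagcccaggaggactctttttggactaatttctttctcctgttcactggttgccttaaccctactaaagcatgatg

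A promoter window was found for 27 of the 32 genes. None was found for Napsa, Ttc36, Slc7a13, Slc5a2 and Slc5a12, which lie near the ends of the range described below. GTTAAT stood on at least 1 strand in the windows of 9 of these 27 genes, or 33.3%, against 8.24% of the 27025 genes with a window. The 9 genes were Acsm2, G6pc, Hnf4a, Miox, Pck1, Slc22a6, Slc22a8, Slc34a1 and Slc3a1, of which 3 had positive and 6 had negative log2 fold changes between the sorts, beside 10 positive and 17 negative among the 27. The Slc34a1 window held it on both strands, at -61 and -89 from the start, and the Kap window held none. TATAAA occurred in 8 of 27 genes (29.6%), against 15.7% of all genes, and in Kap it stood at -31. In Slc34a1 it stood after the start, at 17. In Slc3a1 it stood at -124 and -18, with a match on the other strand at -20. CAAAGTCCA occurred in Slc3a1 alone of the 27, at -39, where 0.555% of all genes have it, and its variant CAAAGGTCA in 0 of 27, against 0.544%. The full palindromic HNF1 motif, which contains the shorter one, occurred in 0 of 27 and in 0.0111% of all genes. A match is a string of letters and does not show that a factor binds there.

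Between the sorts, no gene of the 32 passed the threshold, and their differences ran from a log2 fold change of -2.04 for Kap to 1.31 for Slc5a2. At an adjusted p under 0.05 in edgeR's quasi-likelihood test, 0 of 32 were higher and 0 were lower in tdT+GFP+ cells, where 0% of the 15462 genes tested were called in either direction. The smallest adjusted p among the 32 was 0.429. At an unadjusted p under 0.05, 0 of 32 were higher, where 3.71% of all genes were, and 4 were lower, where 6.97% were. Log2 fold changes, tdT+GFP+ over tdT-GFP+ throughout, were positive for 12 and negative for 20 genes, while 49.9% of all genes were positive. Their median was -0.13 with quartiles -0.57 and 0.24, against a median of -0.00039 and quartiles -0.19 and 0.13 over all genes tested. DESeq2 also called 0 of 32 in either direction, where it called 0.117% of all genes higher and 1.81% lower, and limma-voom called 0 of 32. The median over the 32 genes was 0.20 without tdT+GFP+ library 3, -0.68 without tdT+GFP+ library 2 and 0.39 without tdT-GFP+ library 3, so that 1 library decided its sign.

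**Figure D1:**
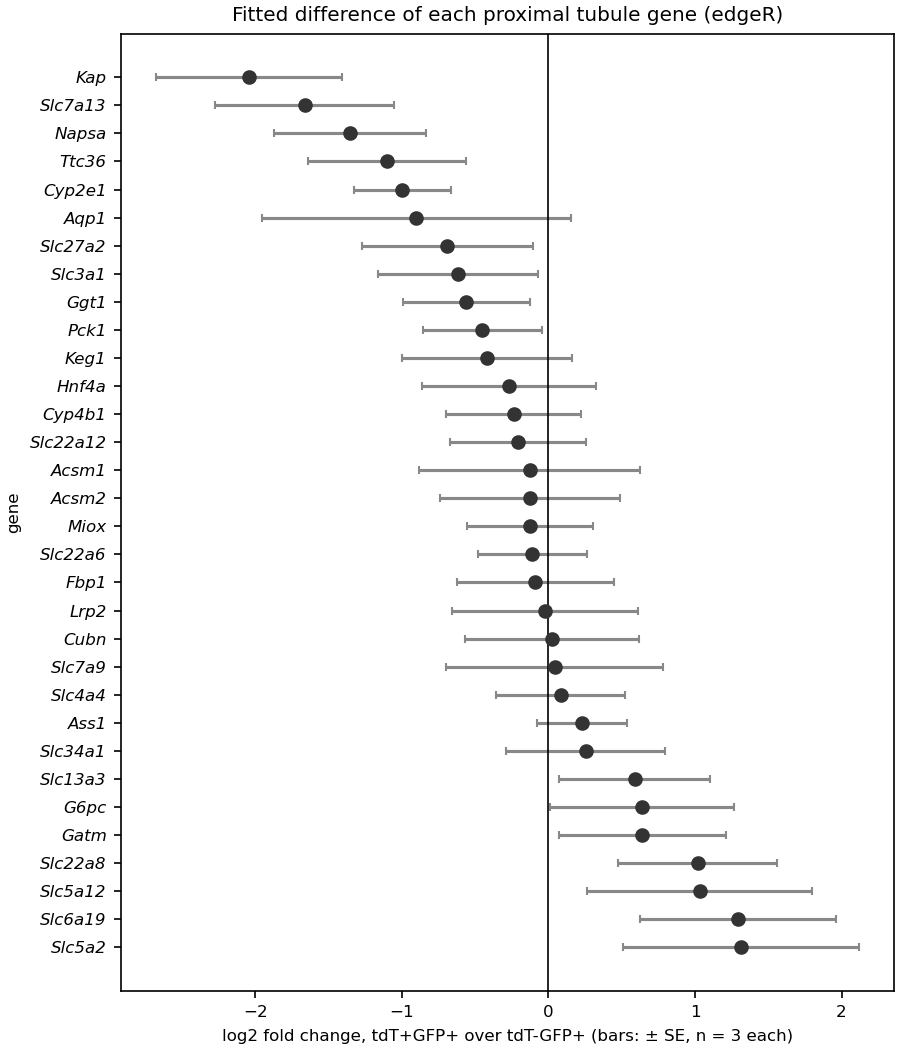
Log2 fold change of each of the 32 genes (x axis, tdT+GFP+ over tdT-GFP+) with its standard error (bars, n = 3 libraries each), ordered from the lowest at the top. Kap lies lowest at -2.04 and Slc5a2 highest at 1.31. The bars of Aqp1 and of every gene from Keg1 to Slc34a1 cross 0. The other bars do not, but no gene was called.

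The standard errors of these genes were wide. Their median was 0.56 on the log2 scale, and 97.1% of the 12781 genes in the same range of mean level had a smaller one, with a median of 0.13. The highest library exceeded the lowest by 2.27-fold for Ass1, by 4.55-fold in the median over the genes and by 18.9-fold for Aqp1. The values of the sorts overlapped for 29 of the 32 genes.

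Kap, which encodes a secreted kidney protein that androgen induces in the proximal tubule, had the most negative log2 fold change. It had 15.9, 41.2 and 37.0 CPM in tdT+GFP+ libraries, against 58.5, 79.4 and 249 CPM in tdT-GFP+ libraries. The groups did not overlap, and each kidney gave the lower value in tdT+GFP+ cells. Its mean was 31.4 ± 13.6 CPM over the tdT+GFP+ libraries, against 129 ± 105 CPM over the tdT-GFP+ libraries (SD, n = 3 per sort), and the log2 fold change was -2.04 (SE 0.63, unadjusted p = 0.0162, adjusted p = 0.429, edgeR). With the kidney as a block, DESeq2 called Kap lower (log2 fold change -1.86, adjusted p = 8.3e-06), as it did 1.66% of all genes with an adjusted p, whereas edgeR with the block did not (adjusted p = 0.410). Without the block DESeq2 did not call it either (adjusted p = 0.171). Without tdT-GFP+ library 3 the value was -1.14, and without tdT+GFP+ library 3 it was -2.16. Per kilobase of exon, Kap was the second most abundant of the 32 genes after Aqp1, with 44.4 CPM per kb over the tdT+GFP+ libraries, against 183 CPM per kb over the tdT-GFP+ libraries.

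The groups did not overlap for 3 genes, all with lower values in tdT+GFP+ cells, where 8.6% of all genes did not overlap in that direction, and for 0 of 32 in the other direction, where 7.23% did not. These were Kap, Slc7a13 and Napsa. Slc7a13, an amino acid transporter of the straight segment, was scarce at 0.763, 0.451 and 1.26 CPM in tdT+GFP+ libraries, against 1.61, 1.42 and 4.75 CPM in tdT-GFP+ libraries (log2 fold change -1.66, SE 0.61). Napsa, which encodes the aspartic protease napsin A, had 10.4, 16.3 and 9.97 CPM in tdT+GFP+ libraries and 17.8, 17.6 and 58.3 CPM in tdT-GFP+ libraries (-1.35, SE 0.52). In both genes tdT-GFP+ library 3 stood far above the rest, and without it the values were -0.89 and -0.53. Cyp2e1, a cytochrome P450 that oxidises ethanol and other small molecules, had 4.49, 6.96 and 5.33 CPM in tdT+GFP+ libraries, against 6.81, 10.8 and 15.9 CPM in tdT-GFP+ libraries (log2 fold change -0.998, SE 0.33). Its groups overlapped by a narrow margin, and each kidney gave the lower value in tdT+GFP+ cells. Unadjusted p-values were 0.0309 for Slc7a13, 0.0374 for Napsa and 0.0214 for Cyp2e1, with adjusted p-values of 0.444, 0.450 and 0.438 (edgeR). Ttc36, a tetratricopeptide repeat gene, ranged from 3.02 to 6.51 CPM in tdT+GFP+ libraries and from 4.97 to 16.8 CPM in tdT-GFP+ libraries (-1.10, SE 0.54).

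Slc5a2, Slc6a19 and Slc5a12, transporters of the early convoluted tubule, lay at the other end of the range. These 3 were grouped by segment after their values were seen, and none was called. Other transporters of the list, such as Slc34a1 (0.25) and Slc4a4 (0.08), lay in the middle. Slc5a2, the sodium-glucose cotransporter SGLT2, had 19.3, 37.1 and 3.35 CPM in tdT+GFP+ libraries, against 6.55, 4.56 and 13.0 CPM in tdT-GFP+ libraries. TdT+GFP+ libraries 1 and 2 were above all tdT-GFP+ libraries, and replicate 3 was below them all. Its log2 fold change was 1.31 (SE 0.80, unadjusted p = 0.150, adjusted p = 0.544, edgeR), 1.82 (adjusted p = 0.244) without that replicate and 0.50 without tdT+GFP+ library 2. Slc6a19, the main neutral amino acid transporter of the brush border, had 7.87, 13.3 and 1.83 CPM in tdT+GFP+ libraries and 2.73, 2.24 and 4.45 CPM in tdT-GFP+ libraries (1.29, SE 0.67, and 1.77 without tdT+GFP+ library 3). Slc5a12, a sodium-coupled lactate transporter, ranged from 2.09 to 16.0 CPM in tdT+GFP+ libraries and from 1.98 to 7.56 CPM in tdT-GFP+ libraries (1.03, SE 0.77, and 1.51 without that library). All 3 were lowest or nearly lowest in tdT+GFP+ library 3. The basolateral organic anion transporter gene Slc22a8 (OAT3), whose promoter is shown above, had 6.86, 10.9 and 2.51 CPM in tdT+GFP+ libraries, against 2.67, 2.50 and 4.86 CPM in tdT-GFP+ libraries (1.02, SE 0.54, adjusted p = 0.507, edgeR). Its groups overlapped through tdT+GFP+ library 3, without which the value was 1.42. Leaving out tdT+GFP+ library 2 instead gave 0.63 for Slc6a19, 0.28 for Slc5a12 and 0.49 for Slc22a8. In that case 5 of the 32 genes had positive and 27 had negative log2 fold changes. At an unadjusted p under 0.05 (edgeR), 0 had positive and 4 had negative values, and the share over all genes was not counted. Without tdT+GFP+ library 3, 21 of the 32 genes had positive and 11 had negative log2 fold changes. In that fit 7 of the 32 had an unadjusted p under 0.05 with positive values, where 5.96% of all genes did, and 2 with negative values, where 8.34% did, and 0 passed the adjusted threshold (smallest adjusted p = 0.211, edgeR).

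**Figure D2:**
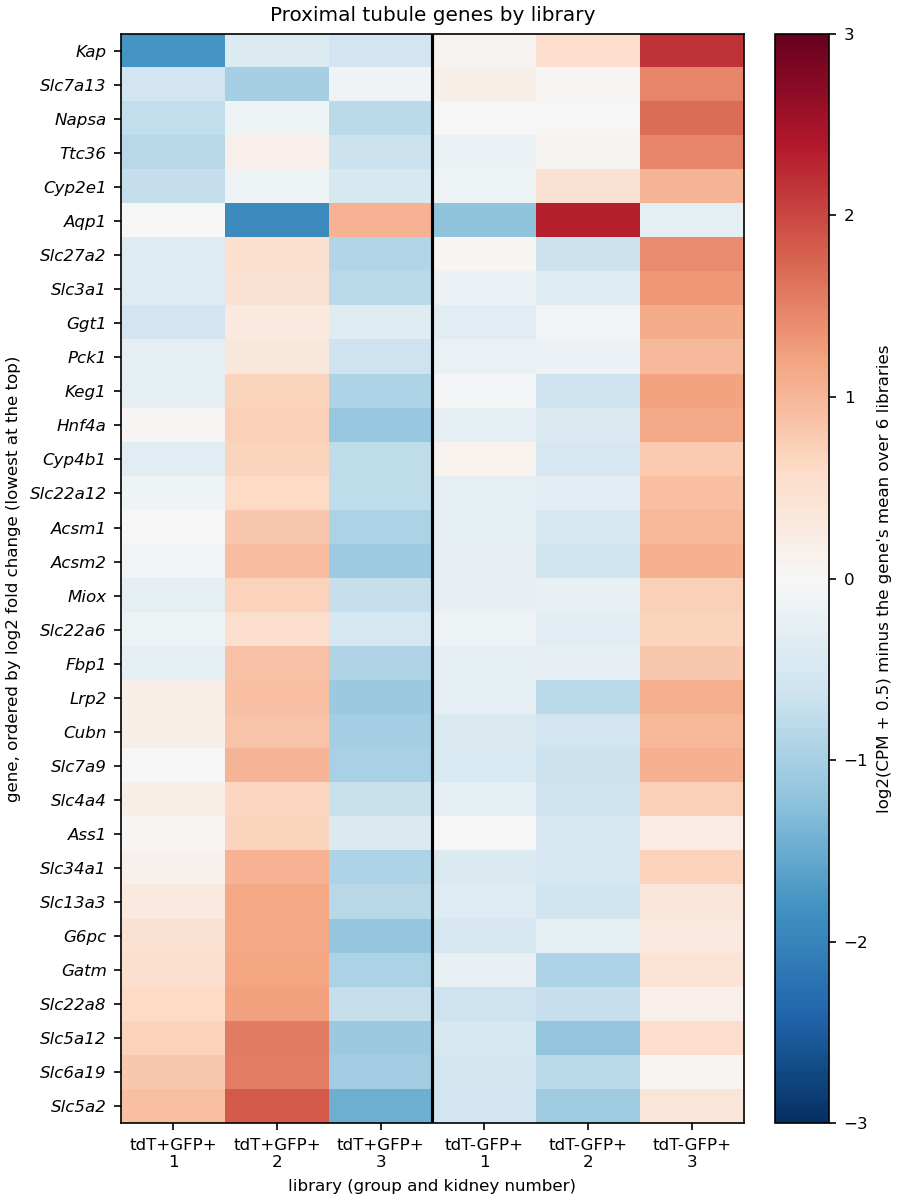
Level of each of the 32 genes in each library as log2(CPM + 0.5) minus the mean of that gene over the 6 libraries (colour; red above, blue below), with the 3 tdT+GFP+ libraries left of the 3 tdT-GFP+ libraries and genes ordered by log2 fold change. Most genes are red in tdT+GFP+ library 2 and tdT-GFP+ library 3 and blue in tdT+GFP+ library 3, and Aqp1 goes against them.

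The receptors that take up filtered protein showed no net difference between the sorts, with large differences between libraries. Lrp2, which encodes megalin, had 86.9, 140.1 and 34.4 CPM in tdT+GFP+ libraries, against 61.9, 42.9 and 161 CPM in tdT-GFP+ libraries. Its log2 fold change was -0.02 (SE 0.64, adjusted p = 0.991, edgeR), and the value moved to 0.74 without tdT-GFP+ library 3. Cubn, the partner receptor cubilin, had 29.3, 47.2 and 12.4 CPM in tdT+GFP+ libraries and 18.8, 17.0 and 51.8 CPM in tdT-GFP+ libraries (0.02, SE 0.60). Both receptors were highest in tdT-GFP+ library 3 and lowest in tdT+GFP+ library 3. Lrp2 is an exceptionally long transcript, and per kilobase of exon it had 5.22 CPM over the tdT+GFP+ libraries, against 5.30 CPM over the tdT-GFP+ libraries, below the median gene of the list. Hnf4a, the nuclear receptor that drives proximal tubule maturation, had 24.2, 39.1 and 10.4 CPM in tdT+GFP+ libraries, against 19.1, 17.3 and 52.5 CPM in tdT-GFP+ libraries (-0.27, SE 0.59). It followed the same order of highest and lowest libraries as the receptors.

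Of the 6 sugar, ion and water transporters, Slc5a2 and Slc5a12 included, 5 had positive log2 fold changes and none was called. Slc34a1, the phosphate transporter, had 96.2, 181 and 46.1 CPM in tdT+GFP+ libraries and 65.6, 61.9 and 144 CPM in tdT-GFP+ libraries (log2 fold change 0.25, SE 0.54). Slc4a4, the basolateral bicarbonate transporter, had 61.3, 85.6 and 34.1 CPM in tdT+GFP+ libraries and 45.4, 35.3 and 90.3 CPM in tdT-GFP+ libraries (0.08, SE 0.44). Slc13a3, a basolateral dicarboxylate transporter, had 16.8, 31.4 and 7.53 CPM in tdT+GFP+ libraries and 10.4, 8.97 and 17.8 CPM in tdT-GFP+ libraries (0.59, SE 0.52, and 0.97 without tdT+GFP+ library 3). In all 3 the groups overlapped, and tdT+GFP+ library 3 was the lowest library. Without tdT+GFP+ library 2 the value of Slc13a3 was -0.024.

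Aqp1, the water channel of proximal tubule and thin descending limb that also occurs in vasa recta endothelium and red cells, did not follow the other genes. It had 216, 56.7 and 443 CPM in tdT+GFP+ libraries, against 92.8, 1070.1 and 174 CPM in tdT-GFP+ libraries. The highest library was tdT-GFP+ library 2 and the lowest tdT+GFP+ library 2, which the labels give to the same kidney. The log2 fold change was -0.90 (SE 1.05, adjusted p = 0.731, edgeR), the widest error of the 32 genes, and 0.83 without tdT-GFP+ library 2. With the kidney as a block it was -0.11 in edgeR. Aqp1 was the most abundant of the 32 genes, with 90.7 CPM per kb of exon over the tdT+GFP+ libraries, against 170 CPM per kb over the tdT-GFP+ libraries. The endothelial genes, 18 of 18 detected and summed above, were highest in tdT-GFP+ library 3, and the red cell genes in tdT-GFP+ library 1. Both lists were lowest in tdT+GFP+ library 1. Which cells gave the Aqp1 RNA was not tested.

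The organic anion transporters differed among themselves. Slc22a6 (OAT1) had 11.0, 18.2 and 8.49 CPM in tdT+GFP+ libraries, against 11.1, 9.64 and 20.0 CPM in tdT-GFP+ libraries (log2 fold change -0.11, SE 0.37). Slc22a12, the urate exchanger URAT1, had 17.1, 28.6 and 10.8 CPM in tdT+GFP+ libraries and 15.1, 15.1 and 35.3 CPM in tdT-GFP+ libraries (-0.21, SE 0.46). Both were highest in tdT-GFP+ library 3, whereas Slc22a8 was highest in tdT+GFP+ library 2. The ratio of Slc22a6 to Slc22a8 counts was 1.61, 1.67 and 3.38 in tdT+GFP+ libraries and 4.16, 3.85 and 4.12 in tdT-GFP+ libraries.

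Among the other amino acid transporters and enzymes, values lay between these ends. Slc3a1 (rBAT), the heavy chain of the cystine transporter, had 12.2, 22.4 and 8.90 CPM in tdT+GFP+ libraries, against 14.2, 12.2 and 40.4 CPM in tdT-GFP+ libraries (log2 fold change -0.62, SE 0.55). Its light chain gene Slc7a9 ranged from 1.14 to 5.99 CPM in tdT+GFP+ libraries and from 1.57 to 6.23 CPM in tdT-GFP+ libraries (0.04, SE 0.74). The chains act as a pair, and their count ratio was 4.43, 3.74 and 7.80 in tdT+GFP+ libraries and 7.71, 7.79 and 6.49 in tdT-GFP+ libraries. Ggt1, the brush border enzyme that splits glutathione, had 16.1, 29.9 and 18.8 CPM in tdT+GFP+ libraries and 19.1, 23.1 and 53.3 CPM in tdT-GFP+ libraries (-0.56, SE 0.43). Keg1, a glycine N-acyltransferase-like gene, had 15.6, 30.5 and 9.70 CPM in tdT+GFP+ libraries and 18.3, 12.1 and 44.3 CPM in tdT-GFP+ libraries (-0.42, SE 0.58). Both peaked in tdT-GFP+ library 3. Gatm, the first enzyme of creatine synthesis, had 24.6, 40.0 and 8.83 CPM in tdT+GFP+ libraries, against 14.9, 8.93 and 23.3 CPM in tdT-GFP+ libraries (0.64, SE 0.57, and 1.05 without tdT+GFP+ library 3), with its peak in tdT+GFP+ library 2. Without tdT+GFP+ library 2 the value of Gatm was 0.087. Ass1, which makes argininosuccinate for arginine synthesis, had the narrowest range, with 68.4, 107 and 49.0 CPM in tdT+GFP+ libraries and 66.7, 47.2 and 77.6 CPM in tdT-GFP+ libraries (0.23, SE 0.31).

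The genes of glucose synthesis and inositol breakdown were not called and had values of both signs. Pck1, the carboxykinase that opens gluconeogenesis, had 11.6, 18.2 and 9.09 CPM in tdT+GFP+ libraries, against 12.3, 12.5 and 28.4 CPM in tdT-GFP+ libraries (log2 fold change -0.45, SE 0.41). Fbp1, its bisphosphatase, had 8.18, 18.7 and 5.10 CPM in tdT+GFP+ libraries and 8.03, 8.30 and 17.7 CPM in tdT-GFP+ libraries (-0.09, SE 0.53). G6pc, the glucose-6-phosphatase of the last step, ranged from 1.26 to 8.22 CPM in tdT+GFP+ libraries and from 2.24 to 4.30 CPM in tdT-GFP+ libraries (0.64, SE 0.63, and 1.10 without tdT+GFP+ library 3). Miox, which opens the inositol ring, had 16.2, 32.2 and 12.1 CPM in tdT+GFP+ libraries and 16.6, 16.7 and 32.7 CPM in tdT-GFP+ libraries (-0.13, SE 0.43). Without tdT+GFP+ library 2 the value of G6pc was -0.0035. The 4 genes were all lowest in tdT+GFP+ library 3.

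Genes that activate fatty acids had negative values in 3 of 3 cases, and none was called. Slc27a2, a very long-chain acyl-CoA synthetase, had 48.1, 88.5 and 34.1 CPM in tdT+GFP+ libraries, against 65.8, 40.4 and 169.7 CPM in tdT-GFP+ libraries (log2 fold change -0.69, SE 0.58). Acsm2, a medium-chain acyl-CoA synthetase, had 42.5, 85.2 and 20.8 CPM in tdT+GFP+ libraries and 37.8, 29.6 and 95.1 CPM in tdT-GFP+ libraries (-0.13, SE 0.61). Its neighbour Acsm1 ranged from 0.495 to 2.84 CPM in tdT+GFP+ libraries and from 0.822 to 3.34 CPM in tdT-GFP+ libraries (-0.13, SE 0.76), and reads of such related genes may be shared between them. Cyp4b1, a cytochrome P450 of fatty acid and foreign compound oxidation, had 26.2, 52.7 and 19.0 CPM in tdT+GFP+ libraries and 35.5, 23.0 and 57.1 CPM in tdT-GFP+ libraries (-0.24, SE 0.46). All 4 genes changed sign when tdT-GFP+ library 3 or both libraries of kidney 3 were left out, as the ranges under the processing alternatives show.

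Within kidneys as numbered in the labels, the sign of the difference varied from kidney to kidney, and whether the numbers of kidneys 2 and 3 are crossed was not tested. In kidney 1, 19 of 32 genes were higher in tdT+GFP+ cells, where 51.8% of all genes were, with a median log2 ratio of 0.17. In kidney 2, 27 of 32 were higher in tdT+GFP+ cells, where 48.9% of all genes were, with a median of 1.18. In kidney 3, 1 of 32 was higher in tdT+GFP+ cells, where 49.2% of all genes were, with a median of -1.63, and that gene was Aqp1. No gene of the 32 was higher in tdT+GFP+ cells in all 3 kidneys, where 15.4% of all genes were. The 4 genes lower in all 3 kidneys were Kap, Slc7a13, Napsa and Cyp2e1, where 17.1% of all genes were lower in all. Without both libraries of kidney 3, 15 of 32 genes had an unadjusted p under 0.05 with positive values, where 5.56% of all genes did. With negative values 2 did, where 6.62% of all genes did, and 0 were called (smallest adjusted p = 0.147, edgeR). Without both libraries of kidney 2 the balance was the reverse, with 4 positive and 28 negative log2 fold changes. In that fit 1 gene had an unadjusted p under 0.05 with a positive value and 8 with a negative value, and 0 were called (edgeR). The share over all genes was not counted for the fit without kidney 2.

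**Figure D3:**
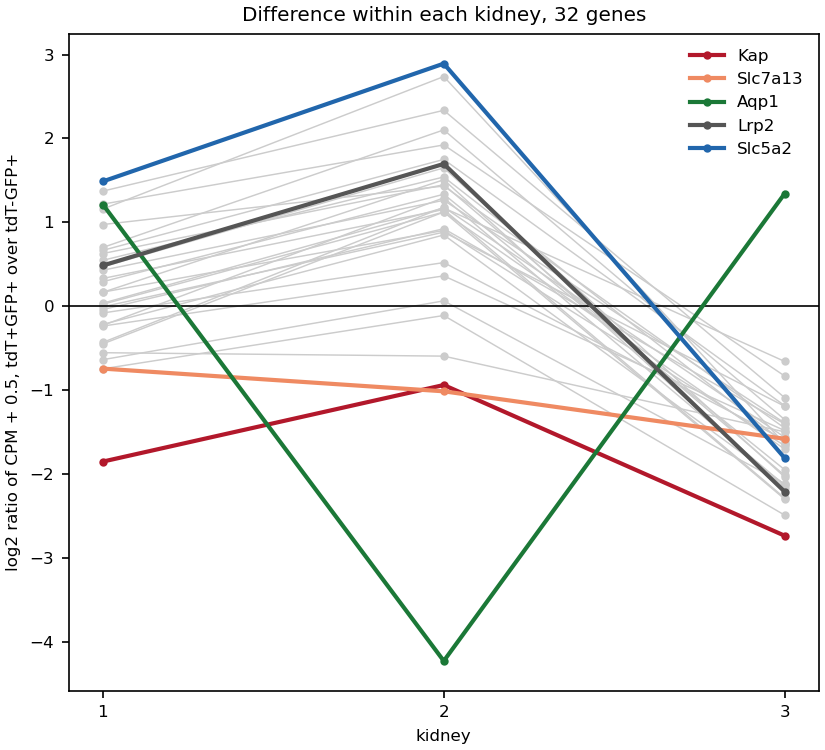
Log2 ratio of CPM + 0.5 in tdT+GFP+ over tdT-GFP+ cells (y axis) in each kidney (x axis, numbered as in the labels), with a line joining the values of a gene and 5 genes in colour. The median of the 32 genes was 0.17, 1.18 and -1.63 in kidneys 1, 2 and 3, Slc5a2 lies above Kap in each kidney, and Aqp1 is below 0 in kidney 2 and above 0 in kidney 3.

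The order of the genes was partly shared between kidneys although their level was not. Over the 31 genes without Aqp1, left out after its values were seen, the log2 ratios of kidneys 1 and 2 had a Pearson correlation of 0.89 and a Spearman correlation of 0.90. For kidneys 1 and 3 the Pearson correlation was 0.47, and for kidneys 2 and 3 it was 0.29. With Aqp1 the Pearson values were 0.42, 0.49 and -0.41, so that 1 gene sets the last. Over all 15462 genes tested they were 0.25, 0.34 and -0.19. These are descriptions across genes, which share the libraries and are not independent replicates.

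Count ratios between genes of a library do not depend on how the library is scaled. Slc5a2, with the highest log2 fold change, is set here against Kap and Slc7a13, which had the lowest. These genes lie at the ends of the range described above, so their ratios differ between the sorts by that choice. Slc5a2 and Kap had a count ratio of 1.22, 0.899 and 0.0904 in tdT+GFP+ libraries, against 0.112, 0.0574 and 0.0521 in tdT-GFP+ libraries. Slc5a2 over Slc7a13, an early against a straight segment transporter, had 25.3, 82.1 and 2.67 in tdT+GFP+ libraries and 4.06, 3.21 and 2.73 in tdT-GFP+ libraries. TdT+GFP+ libraries 1 and 2 thus stood apart, and replicate 3 lay within or beside the range of tdT-GFP+ libraries. By contrast, Lrp2 over Cubn held between 2.76 and 2.97 in tdT+GFP+ libraries and between 2.53 and 3.30 in tdT-GFP+ libraries.

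**Figure D4:**
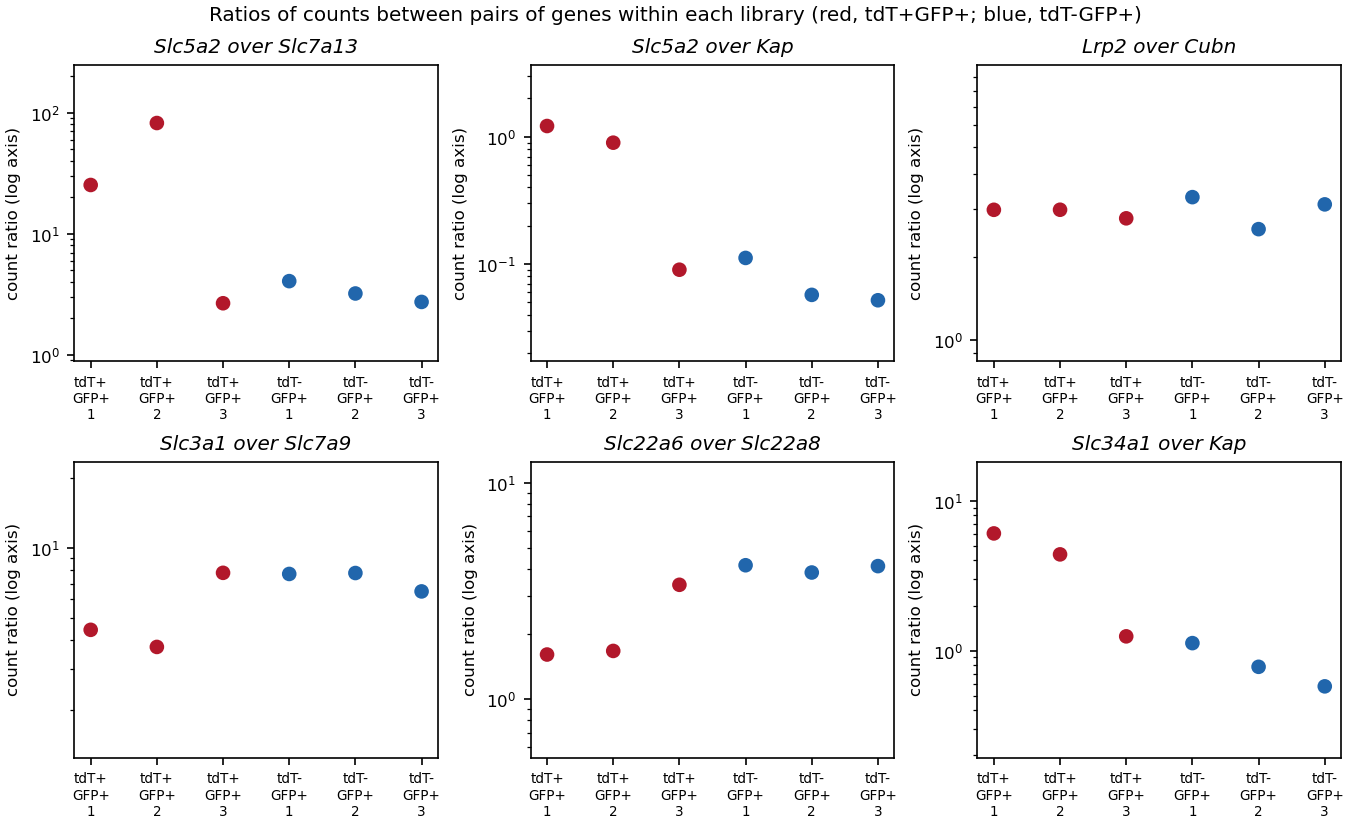
Ratio of the counts of 2 genes in each library (y axes, log scale) for 6 pairs, with tdT+GFP+ libraries in red at the left and tdT-GFP+ libraries in blue at the right. Slc5a2 over Kap is 1.22 and 0.899 in tdT+GFP+ libraries 1 and 2 and at most 0.112 in the other libraries, while Lrp2 over Cubn stays between 2.53 and 3.30.

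Genes of the segments outside the 32, picked after their values were seen, are given as values only. Slc2a2, the glucose exit transporter GLUT2 of the early tubule, had 8.12, 15.9 and 2.47 CPM in tdT+GFP+ libraries, against 4.84, 2.77 and 9.31 CPM in tdT-GFP+ libraries. Slc5a1, the glucose transporter SGLT1 of the straight part, had 2.75, 3.26 and 5.75 CPM in tdT+GFP+ libraries and 7.44, 6.99 and 14.8 CPM in tdT-GFP+ libraries. Slc2a2 shared the order of Slc5a2 at its top and bottom in tdT+GFP+ libraries, and Slc5a1 was lower in tdT+GFP+ cells in each kidney without overlap. Slc5a8, a monocarboxylate transporter of the straight part, had 1.53, 4.03 and 2.63 CPM in tdT+GFP+ libraries and 4.25, 3.03 and 13.7 CPM in tdT-GFP+ libraries.

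A wider list of 88 other proximal tubule genes also changed direction between kidneys 2 and 3, but differed in its summed level. Of these, 87 were found and 82 tested, and edgeR called 0. At an unadjusted p under 0.05, 1 had a positive value, where 3.71% of all genes did, and 11 a negative value, where 6.97% did. The median log2 fold change was -0.38, with 20 positive and 62 negative values. In kidneys 1, 2 and 3, 38, 68 and 3 of the 82 were higher in tdT+GFP+ cells, where 51.8%, 48.9% and 49.2% of all genes were. The list summed to 2232, 3276 and 1754 CPM in tdT+GFP+ libraries, against 1845, 2016 and 3150 CPM in tdT-GFP+ libraries. The log2 ratio of its mean sums was 0.05, against -0.42 for the 32 genes. Gpx3 alone gave 1008, 1560 and 719 CPM of the tdT+GFP+ sums and 706, 836 and 1186 CPM of the tdT-GFP+ sums. Its most abundant genes were Gpx3, a secreted glutathione peroxidase (log2 fold change 0.27), the amino acid transporter gene Slc7a8 (0.25) and the aminopeptidase gene Anpep (-0.10). Slc7a8 had another order, with 319, 246 and 339 CPM in tdT+GFP+ libraries and 233, 344 and 185 CPM in tdT-GFP+ libraries. Which cells gave the RNA of these genes was not tested. DESeq2 called Slc22a19 (adjusted p = 0.00141) and Serpina1f (0.0425) lower, where it called 1.81% of all genes lower and 0.117% higher. With the kidney as a block it called Slc5a1 lower (0.00074) and Fut9 higher (0.0138). With that block it called 1.66% of all genes lower and 0.287% higher. Slc22a19, an organic anion transporter of the straight part, had 1, 3 and 2 counts in tdT+GFP+ libraries, against 18, 25 and 56 counts in tdT-GFP+ libraries. Fut9, a fucosyltransferase gene, had 120, 118 and 97.1 CPM in tdT+GFP+ libraries and 92.7, 71.4 and 50.1 CPM in tdT-GFP+ libraries.

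Macrophage genes had their high and low values in much the same libraries as the tubule genes. The 12 macrophage genes, all detected, summed to 1291, 1855 and 546 CPM in tdT+GFP+ libraries, against 716, 496 and 1299 CPM in tdT-GFP+ libraries. The 31 genes without Aqp1 summed to 718, 1262 and 429 CPM in tdT+GFP+ libraries, against 667, 574 and 1601 CPM in tdT-GFP+ libraries. In kidneys 1, 2 and 3, 12, 12 and 0 of the 12 macrophage genes were higher in tdT+GFP+ cells, beside 18, 27 and 0 of those 31. The most abundant, the lysozyme gene Lyz2, had 494, 826 and 199 CPM in tdT+GFP+ libraries and 265, 115 and 444 CPM in tdT-GFP+ libraries. The part of macrophage RNA in the tubule differences was not tested. Genes of the Henle loop, distal tubule and collecting duct had another order, with 688, 693 and 1116 CPM in tdT+GFP+ libraries and 1025, 1354 and 1707 CPM in tdT-GFP+ libraries. Of their 31 tested genes 28 had negative log2 fold changes (median -0.76) and 4 were higher in tdT+GFP+ cells in kidney 2, where 27 of the 32 proximal tubule genes were higher. Injured tubule genes were negative in 20 of 20 cases (median -0.62) and summed to 903, 986 and 1417 CPM in tdT+GFP+ libraries, against 1185, 1504 and 2581 CPM in tdT-GFP+ libraries. Podocyte genes were negative in 7 of 10 cases (median -0.31), endothelial genes in 18 of 18 (median -1.26), and fibroblast and myofibroblast genes in 2 of 12 (median 0.14). EdgeR called 0 genes in each of these lists. Its unadjusted p-values under 0.05 went to 10 of 31 distal, 2 of 20 injured tubule, 3 of 10 podocyte and 14 of 18 endothelial genes. All of these had negative values, and 6.97% of all genes tested had such a p with a negative value. Among macrophage, fibroblast and red cell genes 0 had such a p. DESeq2 called 0 macrophage, 1 distal, 0 injured tubule, 1 podocyte and 12 endothelial genes, and 0, 9, 4, 2 and 10 of them, lists in the same order, once the kidney was a block. Of all genes with an adjusted p, it called 1.81% lower, and 1.66% lower with the block.

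**Figure D5:**
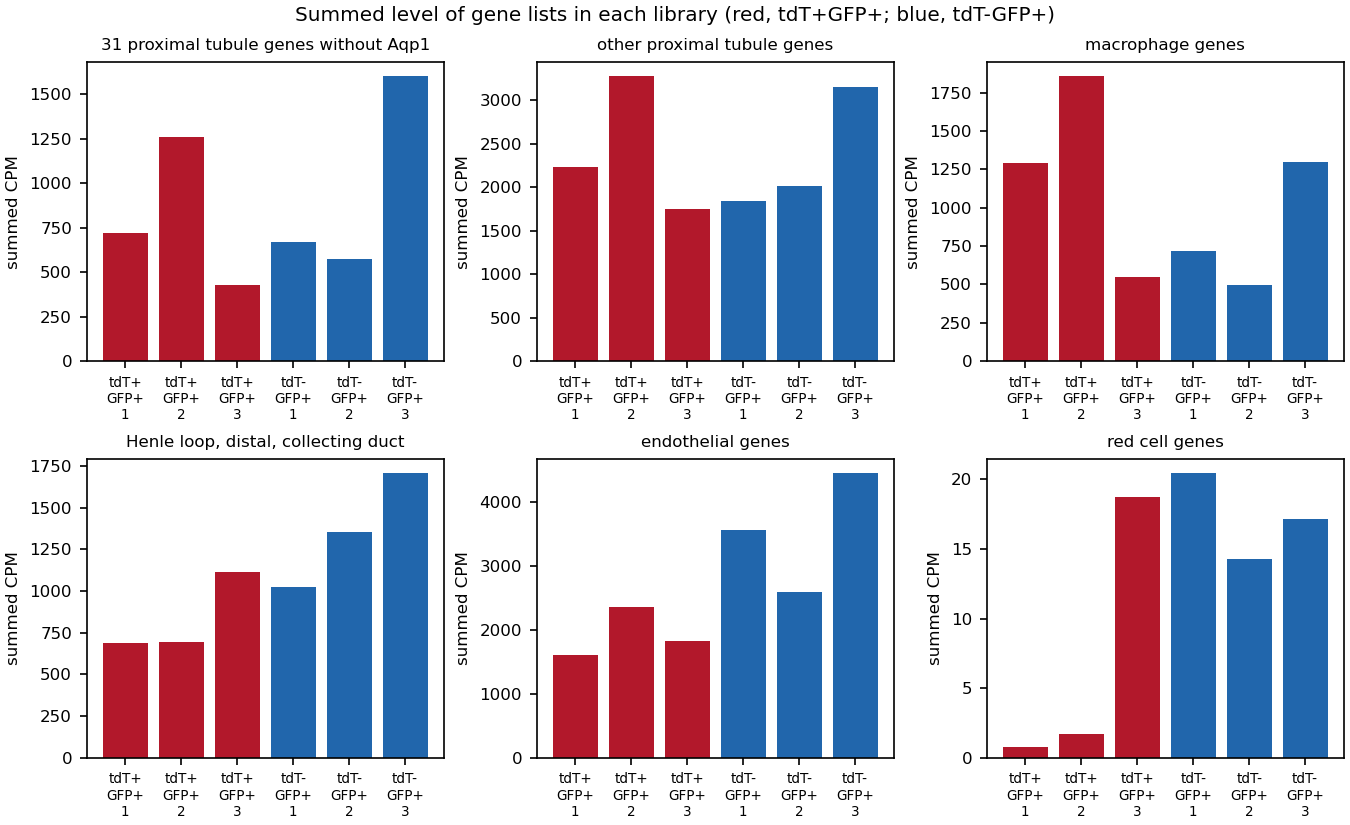
Summed CPM of 6 gene lists (y axes, from 0) in each library, tdT+GFP+ in red at the left and tdT-GFP+ in blue at the right. The 31 proximal tubule genes without Aqp1, the other proximal tubule genes and the macrophage genes are high in tdT+GFP+ library 2 and tdT-GFP+ library 3, whereas red cell genes are near 0 in replicates 1 and 2 of tdT+GFP+ cells.

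By library, tdT-GFP+ library 3 was the highest for 21 of the 32 genes, where 23.3% of all genes had their highest value, and tdT+GFP+ library 2 for 10, where 17% of all genes did. Aqp1 alone peaked in tdT-GFP+ library 2, where 22.5% of all genes did, and no gene of the 32 peaked in tdT+GFP+ libraries 1 and 3 or tdT-GFP+ library 1, where 15.5%, 11.9% and 9.84% of all genes did. The lowest value fell in tdT+GFP+ library 3 for 23 of the 32 genes, where 12.6% of all genes had it, for 4 in tdT+GFP+ library 1 (15.5%), for 2 in tdT+GFP+ library 2 (17.7%) and for 3 in tdT-GFP+ library 2 (22.2%). No gene of the 32 was lowest in tdT-GFP+ libraries 1 and 3, where 11.9% and 20.1% of all genes were. Relative to its own mean over the 6 libraries on the log2 scale, the median gene stood at -0.04, 0.69 and -0.82 in tdT+GFP+ libraries, against -0.27, -0.50 and 0.93 in tdT-GFP+ libraries. Of the 32 gene models, 13 are overlapped by another annotated gene, such as Slc3a1 by Prepl and Slc22a12 by Nrxn2, each on the opposite strand, and without strand in the counting, reads of such genes cannot be told apart.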

How the data were processed

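The authors deposited estimated counts per gene (RSEM gene results, per the file headers), all of them integers. The submitters' processing notes name RSEM 1.2.28, STAR 2.6.1, bcl2fastq 2.20, R 3.6.3 and DESeq2 1.26.0. They list mm10 and GRCh38 as builds and give neither a role. Not given in the sources used here are the annotation release and whether the strand-specific libraries were counted by strand. The 92 ERCC spike-in rows, 0 in all libraries, were left out. Exon lengths come from GENCODE M21, in which 31748 of 31815 gene identifiers were found.

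Genes were filtered with filterByExpr, scaled by TMM and tested on the group alone with edgeR 4.0.16 (robust glmQLFit and glmQLFTest, R 4.3.3). P-values were adjusted by Benjamini and Hochberg over 15462 genes. The procedure was tested on simulated data with the same spread set for every gene. That does not show its power for genes that vary as much as those described here. Log2 fold changes are unshrunken, and 0.5 CPM was added in ratios per kidney. A count of 3 is 0.0915 to 0.114 CPM.

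Alternatives were DESeq2 1.42.0, limma-voom 3.58.1, DESeq2 size factors, library totals, other filters, the kidney as a block, and leaving out libraries or kidneys. The source and tissue labels name the same kidney, 1, 2 or 3, for 1 library of each sort, and libraries were paired on that basis only. Deviations from the group means correlated by 0.093, -0.657 and -0.342 for kidneys 1, 2 and 3, and by 0.514 and 0.516 between kidneys 2 and 3 across the sorts. These correlations are not independent of each other. No pair of libraries agreed within counting noise.

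Members and lists were chosen with earlier results of these data known. Values by library are given for members with a mean of at least 10 CPM, for 7 members always and for the 3 with the smallest p in each direction. Other lists name at most 3 of their most abundant genes and genes that DESeq2 called.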

Additional observations from a re-analysis of the deposited data

How the results depend on the processing

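Over all genes, edgeR called 0, while DESeq2 called 17 higher and 264 lower, and with the kidney as a replicate block 41 higher and 237 lower. Limma-voom and edgeR with the block called 0 of all genes and 0 of the 32. Among the 32 genes, 0 were called in edgeR and in DESeq2, and DESeq2 with the block called 1 lower, Kap. The cause was not tested. The block turned the sign of Lrp2, to 0.062 in DESeq2 and 0.065 in edgeR, and changed no other call or sign among the 32 genes. Their median log2 fold change stayed between -0.15 and -0.11 under the other tests, scalings, filters and the block, and was -0.13 without the 6 genes known from other cells or, chosen after seeing the data, without Aqp1. It ran from -0.92 without kidney 2 to 0.67 without kidney 3 when libraries were left out. The log2 ratio of the summed level, -0.42, was -0.48 on library totals, -0.24 without Aqp1 and from -0.71 to -0.09 with libraries left out. For 8 genes the sign held under every alternative run, namely Kap, Slc7a13, Napsa, Ttc36, Cyp2e1, Slc22a8, Slc6a19 and Slc5a2. For the other 24 it turned when some libraries were left out, with log2 fold changes over those fits of Lrp2 -0.88 to 1.11, Cubn -0.76 to 1.10, Slc34a1 -0.56 to 1.12, Slc5a12 -0.066 to 2.15, Slc13a3 -0.21 to 1.31, Slc4a4 -0.51 to 0.86, Aqp1 -2.09 to 1.30, Slc22a6 -0.68 to 0.50, Slc22a12 -0.86 to 0.60, Slc27a2 -1.52 to 0.36, Acsm1 -1.20 to 1.17, Acsm2 -1.07 to 0.92, Slc3a1 -1.38 to 0.39, Slc7a9 -1.05 to 1.35, Ggt1 -1.06 to 0.12, Ass1 -0.30 to 0.62, Gatm -0.20 to 1.43, Keg1 -1.31 to 0.59, Miox -0.81 to 0.54, Pck1 -0.98 to 0.26, Fbp1 -0.96 to 0.72, G6pc -0.087 to 1.40, Cyp4b1 -1.04 to 0.43, Hnf4a -1.05 to 0.80. Each gene had at least 13 counts in every library, and the sorts are compared over 3 kidneys only.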
